A study of Homo sapiens with 9 samples.

Results

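The transcription factor NRF2 (gene NFE2L2), its inhibitor KEAP1 and 7 antioxidant genes, NQO1, TXNRD1, HMOX1, GCLC, GCLM, SRXN1 and ME1, were examined in the human ovarian cancer cell line ES-2, grown in RPMI-1640 with 10% FBS. The 9 genes were chosen by name from a table of 32997 genes, all 9 were found once, and all 9 passed the filter on low values that 16533 genes passed. Total RNA had been sequenced in 9 libraries from 3 genotypes: 3 of cells with an empty vector, 3 of cells overexpressing OTUB2, a deubiquitinating enzyme, and 3 of cells overexpressing SNX29P2, a pseudogene of the sorting nexin SNX29. The labels name no treatment besides the transgenes, and each comparison asks whether a transgene goes with a different level of these genes. They also name neither clones nor separate cultures, so each p-value reflects no more than the variation among these libraries, which may be technical.

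In resting cells KEAP1 holds NRF2 and, with the ubiquitin ligase scaffold CUL3, directs it to the proteasome. Oxidants and electrophiles modify KEAP1, after which NRF2 accumulates, pairs with a small MAF protein and binds antioxidant response elements near genes for glutathione synthesis, thioredoxin reduction, quinone reduction and NADPH supply. Because this control acts mainly on the protein, the RNA of the targets is the usual readout of NRF2 activity. Some targets also answer to other factors. HMOX1 in particular is also induced by haem and, in some cells, by heat shock.

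The antioxidant response element has the core letters TGACNNNGC, where N is any base. The 300 bases around each start (250 before and 50 after, RefSeq, GRCh38.p14) were searched for it on both strands, because NQO1, TXNRD1 and GCLM had the members' 3 smallest p-values in both comparisons with the vector. Sequences were matched for 8 of the 9 genes, with 11 starts in all, and 5 of these 11 windows, from 4 genes, held the core. Of all 35116 windows searched, 13.3% held it. The genes were chosen as members of the NRF2 pathway, and NFE2L2, KEAP1 and TXNRD1 each gave an upstream and a downstream start. The shares were therefore not tested against each other. HMOX1 was not matched. Sequence farther from the starts was not searched, so a window without the core does not show that the gene lacks such an element. The 5 windows with a match and that of NQO1, which had none, are given 5′ to 3′ over the 151 bases that end at the start site, with the matched core in capitals on whichever strand it lay:
GCLM, chr1:93909430-93909580, minus strand: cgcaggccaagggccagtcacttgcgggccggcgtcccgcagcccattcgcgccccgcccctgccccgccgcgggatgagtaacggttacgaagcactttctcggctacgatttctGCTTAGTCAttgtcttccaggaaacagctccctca
TXNRD1, upstream start, chr12:104215629-104215779, plus strand: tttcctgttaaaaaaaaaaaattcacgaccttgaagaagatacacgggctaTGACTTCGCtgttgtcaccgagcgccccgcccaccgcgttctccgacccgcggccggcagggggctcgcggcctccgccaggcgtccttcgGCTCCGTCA
TXNRD1, downstream start, chr12:104286882-104287032, plus strand: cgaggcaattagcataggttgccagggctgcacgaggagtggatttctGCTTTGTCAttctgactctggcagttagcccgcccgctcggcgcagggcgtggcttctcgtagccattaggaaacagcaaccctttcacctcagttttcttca
ME1, chr6:83431051-83431201, minus strand: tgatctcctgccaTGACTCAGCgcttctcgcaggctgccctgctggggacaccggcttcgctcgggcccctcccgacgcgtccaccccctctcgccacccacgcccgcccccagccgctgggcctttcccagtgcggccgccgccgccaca
KEAP1, downstream start, chr19:10502771-10502921, minus strand: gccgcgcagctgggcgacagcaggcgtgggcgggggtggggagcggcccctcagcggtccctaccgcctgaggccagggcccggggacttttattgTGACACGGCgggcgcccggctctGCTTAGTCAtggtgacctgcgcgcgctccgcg
NQO1, chr16:69726560-69726710, minus strand: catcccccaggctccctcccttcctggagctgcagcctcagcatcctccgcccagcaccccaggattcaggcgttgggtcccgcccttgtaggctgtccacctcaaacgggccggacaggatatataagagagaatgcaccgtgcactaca

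The GCLM core began 34 bases before the start, on the reverse strand, and the downstream start of KEAP1 held the same 9 letters, GCTTAGTCA, on the reverse strand at 31 bases before its start, besides a forward match at 54 bases before it. TXNRD1 held forward and reverse matches at 99 and 8 bases before its upstream start, and a reverse match at 102 bases before its downstream start. ME1 held TGACTCAGC at 137 bases before its start, which contains the AP-1 site TGACTCA, found in 4.95% of all windows, and a reverse match that began at base 12 of the transcript, beyond the stretch shown. These are matches of letters, and binding was not measured.

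The transgenes checked the labels: OTUB2 was at 37.6 to 42.6 RPKM (reads per kilobase of gene length per 1000000 counted reads) in its own libraries and 1.04 to 1.58 in the other 6, and SNX29P2 at 41.0 to 55.1 against 0 to 0.0665. Depth, in units of 1000000 reads in genes, was 38.5 to 48.6 per library. The epithelial keratins KRT8 (25.7 to 36.5 RPKM) and KRT18 (101 to 147) were expressed, while EPCAM, KRT19 and the ovarian tumour markers PAX8 and MSLN stayed under 0.5 RPKM in all 9 libraries and WT1 reached 1.37. The label of ovarian origin could therefore not be checked by its usual markers. Of leukocyte markers 1 of 5, CD68 (28.6 to 35.3 RPKM), 1 of 4 endothelial markers, CDH5 (17.6 to 23.6), and 1 of 3 fibroblast markers in the table, COL1A1 (45.5 to 86.0), were well expressed in every library. PTPRC, CD3E, CD14 and MS4A1 together had 208 reads in OTUB2 replicate 1 (summed level 1.18 RPKM) and 0 to 6 reads in each of the other 8 libraries.

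The libraries of the 3 groups overlapped for both regulators. NFE2L2 (chromosome 2, 177227595 to 177392697, GRCh38) was at 13.1, 13.0 and 13.1 RPKM with the vector, 12.0, 14.6 and 12.4 under OTUB2, and 13.1, 15.1 and 13.2 under SNX29P2. The vector libraries lay within the OTUB2 range, and the libraries numbered 2 were the highest of both overexpression groups. Its log2 fold change against the vector was -0.01 under OTUB2 (95% interval -0.21 to 0.19) and 0.08 under SNX29P2 (-0.12 to 0.28; limma, Benjamini-Hochberg adjusted p = 0.994 and 0.869). All fold changes are on the log2(RPKM + 0.1) scale, in 1 limma fit to the 9 libraries, with p-values adjusted over all 16533 genes and genes called under 0.05.

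KEAP1 (chromosome 19, 10486120 to 10503741) was at 14.1, 18.7 and 17.2 RPKM with the vector. It was at 18.6, 18.8 and 17.5 RPKM under OTUB2, and at 17.9, 17.7 and 15.0 under SNX29P2. The 3 groups overlapped, and vector replicate 1 was the lowest of the 9. The log2 fold change was 0.14 under OTUB2 (interval -0.10 to 0.39) and 0.02 under SNX29P2 (-0.22 to 0.27; limma, Benjamini-Hochberg adjusted p = 0.862 and 0.976). Exons of NFE2L2 share 1054 bases with AC074286.1 on the same strand, whose reads numbered 3.16% of those of NFE2L2, and 190 bases with AC079305.10 on the opposite strand (10.3%). AGPS, also on the opposite strand, shares 54 bases and had 125% as many reads. The handling of strand in counting is not given in the sources used here, so such reads cannot be told apart.

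**Figure D1:**
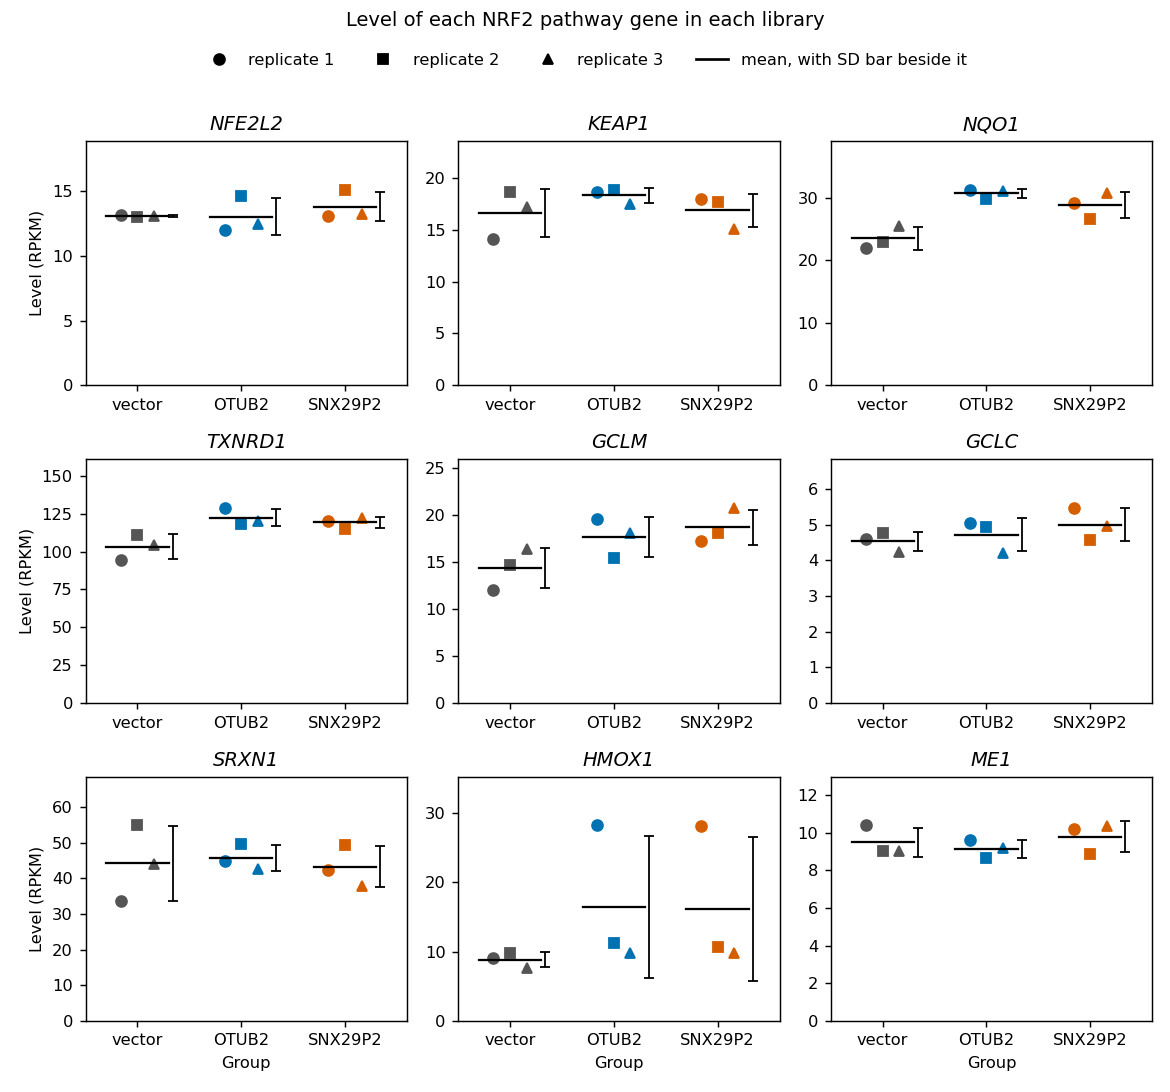
Level in RPKM (vertical axes, each from 0) of each gene in the vector, OTUB2 and SNX29P2 groups, with 1 point per library, marker shape for the replicate number, a line for the mean and a bar for the SD (n = 3). NQO1 and TXNRD1 lie above every vector library in both overexpression groups, and HMOX1 is at 28.2 RPKM in replicate 1 of both and at 7.66 to 11.2 RPKM elsewhere.

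Among the targets, NQO1 and TXNRD1 lay above the vector in all 6 overexpression libraries, without passing the adjusted threshold. NQO1 (chromosome 16, 69706996 to 69726951) encodes the quinone reductase that is the classical reporter of NRF2 activity. It was at 22.0, 23.0 and 25.5 RPKM with the vector, 31.2, 29.8 and 31.0 under OTUB2, and 29.1, 26.6 and 30.7 under SNX29P2. The highest vector library was below the lowest library of either overexpression group. The log2 fold change was 0.39 under OTUB2 (SE 0.0766 and interval 0.22 to 0.56, with an adjusted p of 0.458 by limma), a factor of 1.31. Under SNX29P2 it was 0.29 (interval 0.12 to 0.47; limma, Benjamini-Hochberg adjusted p = 0.488). In order of p, NQO1 stood at place 21 of 16533 under OTUB2 and at place 113 under SNX29P2. CTD-2033A16.1, on the opposite strand, shares 575 exonic bases with NQO1 and had 9.24% as many reads.

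TXNRD1 (chromosome 12, 104215779 to 104350305), the cytosolic thioredoxin reductase, had the highest level of the 9 genes. It was at 94.5, 111 and 104 RPKM with the vector, 129, 118 and 120 under OTUB2, and 120, 115 and 122 under SNX29P2. All 6 overexpression libraries were above the 3 vector libraries, the smallest gap being that between vector replicate 2 and SNX29P2 replicate 2. The log2 fold change was 0.25 under OTUB2 (SE 0.0692 and interval 0.09 to 0.40, with an adjusted p of 0.600 by limma) and 0.21 under SNX29P2 (interval 0.05 to 0.37; adjusted p = 0.522). SRXN1 (chromosome 20, 646615 to 653370), the sulfiredoxin that repairs overoxidised peroxiredoxins, did not share this order. It was at 33.7, 54.9 and 44.0 RPKM with the vector, 44.9, 49.7 and 42.6 under OTUB2, and 42.4, 49.5 and 38.0 under SNX29P2. Within each group the library numbered 2 was the highest, and the vector group held both the lowest and the highest of the 9 libraries. The log2 fold change was 0.07 under OTUB2 and -0.01 under SNX29P2 (limma, Benjamini-Hochberg adjusted p = 0.974 and 0.992). SRXN1 shares 2292 bases, 85.0% of its exon length, with another entry on the same strand, which had 89.6% as many reads, so its value cannot be told apart from that entry's.

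Glutathione synthesis starts with glutamate-cysteine ligase, whose catalytic subunit is GCLC and whose modifier subunit is GCLM. GCLM (chromosome 1, 93885205 to 93909456) was at 12.1, 14.7 and 16.4 RPKM with the vector, 19.6, 15.4 and 18.1 under OTUB2, and 17.2, 18.1 and 20.8 under SNX29P2. The SNX29P2 libraries were all above the vector, and OTUB2 replicate 2 fell within the vector range. The log2 fold change was 0.39 under SNX29P2 (SE 0.129, interval 0.10 to 0.67) and 0.30 under OTUB2 (interval 0.01 to 0.59; limma, Benjamini-Hochberg adjusted p = 0.534 and 0.720). Vector replicate 1 had the lowest GCLM level, and without it these were 0.27 and 0.18.

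GCLC (chromosome 6, 53497341 to 53616970) was the lowest of the 9 genes, at 4.59, 4.77 and 4.24 RPKM with the vector, 5.04, 4.94 and 4.20 under OTUB2, and 5.48, 4.57 and 4.95 under SNX29P2. The groups overlapped, with log2 fold changes of 0.06 under OTUB2 (interval -0.18 to 0.29) and 0.14 under SNX29P2 (-0.09 to 0.37; limma, Benjamini-Hochberg adjusted p = 0.964 and 0.771). The ratio of GCLM to GCLC in RPKM was 3.19 ± 0.625 with the vector, 3.77 ± 0.598 under OTUB2 and 3.77 ± 0.554 under SNX29P2 (SD, n = 3), and its libraries overlapped between groups. ME1 (chromosome 6, 83210389 to 83431071), the cytosolic malic enzyme that makes NADPH, was at 10.4, 9.05 and 9.02 RPKM with the vector, 9.63, 8.65 and 9.18 under OTUB2, and 10.2, 8.87 and 10.4 under SNX29P2. Those ranges overlapped too, and the log2 fold changes were -0.05 (interval -0.25 to 0.15) and 0.05 (-0.16 to 0.25; limma, Benjamini-Hochberg adjusted p = 0.962 and 0.931).

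HMOX1 (chromosome 22, 35380361 to 35394214), the inducible haem oxygenase, was set apart by 2 libraries. It was at 9.07, 9.73 and 7.66 RPKM with the vector, 28.2, 11.2 and 9.79 under OTUB2, and 28.2, 10.7 and 9.75 under SNX29P2. Replicate 1 of both overexpression groups was therefore more than 2 times as high as any other library, while the remaining 4 overexpression libraries began just above the highest vector library. The log2 fold change was 0.72 under OTUB2 (SE 0.450, interval -0.29 to 1.74; limma, Benjamini-Hochberg adjusted p = 0.824). Under SNX29P2 it was 0.70 (interval -0.31 to 1.71; adjusted p = 0.732). Without OTUB2 replicate 1 the first became 0.25, and without SNX29P2 replicate 1 the second became 0.21. Its within-group SD of 0.69 on the log2 scale was larger than that of 96.1% of tested genes, whereas that of TXNRD1 was 0.08 and that of NQO1 0.09, against a median of 0.16 over all tested genes.

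Of 7 heat shock genes listed, 6 were also highest in these 2 libraries, HSPA8 being the exception. The share of all tested genes highest in these 2 libraries was not counted. In deviations from the group means the 2 correlated at 0.27, the highest of the pairs between groups. HSPA1A, an inducible HSP70 chaperone, was at 449 RPKM in OTUB2 replicate 1 and 408 in SNX29P2 replicate 1, at 114 to 134 in the other 4 overexpression libraries, and at 44.1, 125 and 68.0 with the vector. HSPA1B, a near-identical copy whose reads may be shared with it, was at 530 and 471 RPKM in those 2 libraries and at 54.4 to 173 elsewhere. Summed over the 7, the level was 1815 RPKM in OTUB2 replicate 1, 1734 in SNX29P2 replicate 1, 1102 to 1232 in the other overexpression libraries and 720, 1306 and 985 with the vector. None of the 7 was called, and their median log2 fold change was 0.40 under OTUB2 and 0.41 under SNX29P2. The co-chaperone DNAJB4 had the smallest p of the 7 in both comparisons, at 0.66 under OTUB2 and 0.85 under SNX29P2 (limma, Benjamini-Hochberg adjusted p = 0.475 and 0.244). It lay above the vector without overlap in both overexpression groups, as did 2.46% of all tested genes, so its higher level was not confined to the 2 libraries. OTUB2 replicate 1 is also the library with 208 reads of the 4 leukocyte markers, whereas SNX29P2 replicate 1, with HMOX1 at the same 28.2 RPKM, had 6. The part of the heat shock level and of these reads in the HMOX1 values was not tested.

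The genes whose log2 level was most like that of HMOX1 over the 9 libraries were ZFAND2A (Pearson r 0.99), UBFD1 (0.98) and AL135787.1 (0.97), among 8273 others with a mean of at least 5 RPKM. HMOX1 was added to this search after its values were seen. ZFAND2A was at 9.90 and 11.1 RPKM in replicate 1 of the OTUB2 and SNX29P2 groups and at 4.96 to 6.28 in the other 7 libraries. PTGR1, a listed NRF2 target, came next at 0.96, with 14.9 and 15.1 RPKM in those 2 libraries and 11.3 to 12.8 in the others. Among the 9 genes, GCLC followed HMOX1 most closely (r 0.76), then TXNRD1 (0.60) and NQO1 (0.47). With the group means removed, these were 0.75, 0.37 and 0.02. These correlations describe 9 libraries in 3 groups, and the highest HMOX1 values lie in 2 of them.

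**Figure D2:**
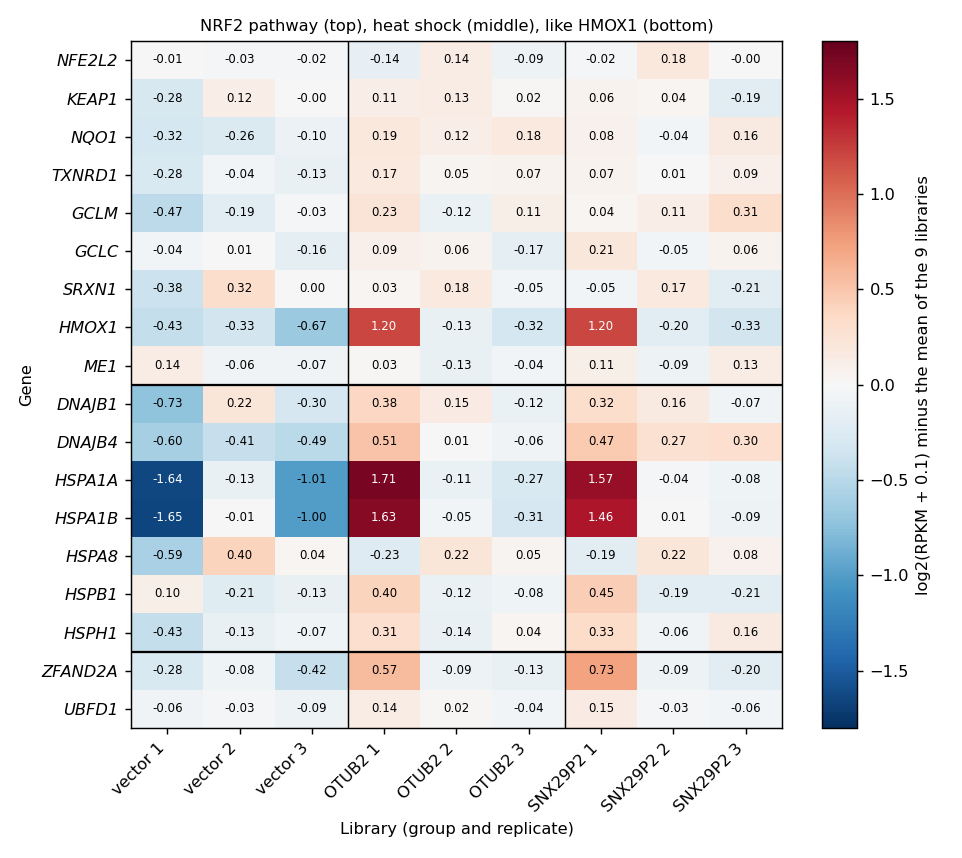
Colour and number give log2(RPKM + 0.1) minus the mean of the 9 libraries for the NRF2 pathway genes (top), heat shock genes (middle) and the protein-coding genes most like HMOX1 (bottom), with libraries by group and replicate along the horizontal axis. HMOX1, HSPA1A, HSPA1B and ZFAND2A stand out in OTUB2 replicate 1 and SNX29P2 replicate 1, the 2 libraries with HMOX1 at 28.2 RPKM.

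Across libraries the correlations between pairs of the 9 genes differed. NQO1, TXNRD1 and GCLM followed each other, with r of 0.89 for NQO1 and TXNRD1, 0.85 for TXNRD1 and GCLM and 0.83 for NQO1 and GCLM. After the group means were removed these were 0.53, 0.71 and 0.77. KEAP1 and SRXN1 formed another pair (r 0.88), and ME1 ran against SRXN1 (-0.82). Here too the SRXN1 values cannot be told apart from those of the entry that overlaps it. NFE2L2 had r of -0.14 with each of NQO1, TXNRD1 and GCLM, and of -0.55, -0.49 and -0.50 after the group means were removed. Vector replicate 1 had the lowest value for 5 of the 9 genes, KEAP1, NQO1, TXNRD1, GCLM and SRXN1. The share of all tested genes that were lowest in that library was not counted, so the 5 cannot be set against it. By the same measure, the genes most like NQO1 were RNASEH1 (0.99), PLXNA2 (0.98) and WSB2 (0.96), and those most like TXNRD1 were TXN, its substrate thioredoxin (0.93), CASC3 (0.93) and TMBIM6 (0.92).

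The order of levels in RPKM was nearly the same in the 3 groups. With the vector, TXNRD1 (103 ± 8.35 RPKM), SRXN1 (44.2 ± 10.6) and NQO1 (23.5 ± 1.85; SD, n = 3) were each separated from the next gene by non-overlapping libraries. KEAP1, GCLM and NFE2L2 (16.6 ± 2.32, 14.4 ± 2.16 and 13.1 ± 0.0854 RPKM; SD, n = 3) overlapped in turn, each with the next. So did ME1 and HMOX1 (9.49 ± 0.787 and 8.82 ± 1.06 RPKM), and GCLC was last (4.54 ± 0.273 RPKM; SD, n = 3). This order depends on the deposited lengths, 8463 bases for GCLC, 3371 for ME1 and 2405 for HMOX1. By reads in the vector group, GCLC (4698) was above ME1 (3928) and HMOX1 (2594). The place of SRXN1 includes reads that cannot be told apart from those of the entry that overlaps it. In the overexpression groups HMOX1 moved above NFE2L2 and ME1 by its mean, 16.4 ± 10.3 and 16.2 ± 10.4 RPKM (SD, n = 3). In replicates 2 and 3 of both groups HMOX1 was below NFE2L2, so its place above NFE2L2 rests on replicate 1.

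Counted together, none of the 9 genes was called in any comparison by limma on RPKM values, or by limma voom on reads recovered from them. Genes called over the whole table came to 0.0181% under OTUB2, 0.0363% under SNX29P2 and 0.0242% for OTUB2 against SNX29P2. Under OTUB2, 7 of 9 had a fold change above 0 (52.0% of all tested genes had), 3 were higher with an unadjusted p under 0.05 (3.62% of all, and 6.73% in either direction), and 3, NQO1, TXNRD1 and HMOX1, lay above the vector without overlap (5.90% of all). Under SNX29P2, 8 of 9 were above 0 (53.6% of all), 3 were higher with an unadjusted p under 0.05 (4.13% of all, and 8.21% in either direction), and 4, the same 3 and GCLM, lay above the vector without overlap (6.13% of all). The median log2 fold change of the 9 was 0.14 in both, against 0.01 over all tested genes in each. In both overexpression groups at once, 3 of 9 lay above the vector without overlap, as did 2.46% of all tested genes. HMOX1 enters these counts by a narrow gap, with its lowest SNX29P2 library at 9.75 RPKM and its highest vector library at 9.73. Both comparisons use the same vector libraries, so the counts are not independent, and the genes were chosen with earlier results of these data known.

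No gene of the 9 separated OTUB2 from SNX29P2. Among them, none was called, none had an unadjusted p under 0.05 (2.43% of all tested genes had, 1.28% higher under OTUB2), and none was free of overlap between the groups (4.30% of all tested genes lay higher and 4.05% lower without overlap). The median log2 difference was 0.03. The difference was 0.09 for NQO1 (95% interval -0.08 to 0.26), 0.04 for TXNRD1 (-0.12 to 0.19) and -0.08 for GCLM (-0.37 to 0.21; limma, Benjamini-Hochberg adjusted p = 1.00 each). For HMOX1 it was 0.03 with an interval of -0.99 to 1.04, which makes it the widest of the 9.

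**Figure D3:**
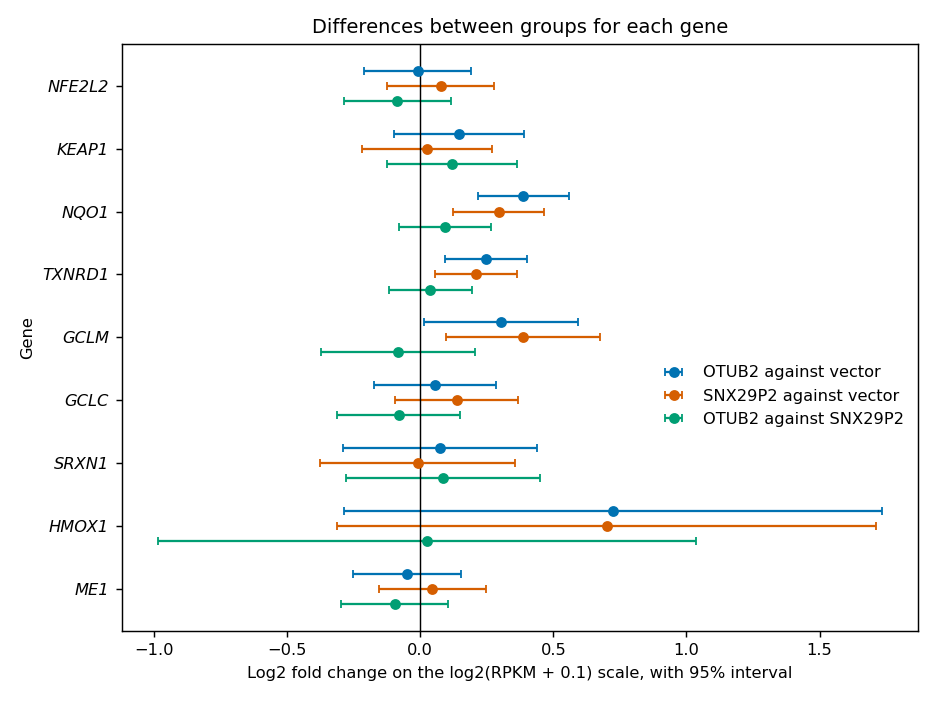
Log2 fold change on the log2(RPKM + 0.1) scale (horizontal axis) with its 95% interval for each gene (vertical axis) and each of the 3 comparisons between groups of 3 libraries. The intervals of NQO1, TXNRD1 and GCLM lie above 0 in both comparisons with the vector before adjustment over all genes, and those of HMOX1 are the widest.

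The wider pathway was mixed in direction. Of 81 genes in 7 lists of partners and further targets, 80 were in the table and 72 were tested. None was called by limma in any comparison. Under OTUB2, 41 of the 72 were higher and 31 lower, 7 and 3 of them with an unadjusted p under 0.05. Of all tested genes, 52.0% were higher, 3.62% were higher with an unadjusted p under 0.05, and 6.73% passed it in either direction. Under SNX29P2, 36 were higher and 36 lower, 3 and 5 of them with an unadjusted p under 0.05. The shares of all tested genes were 53.6% higher, 4.13% higher with an unadjusted p under 0.05, and 8.21% in either direction. The counts of higher genes by list below stand against the same 52.0% and 53.6%. Libraries did not overlap upward for 8 under OTUB2 (11.1%, against 5.90% of all tested genes) and for 5 under SNX29P2 (6.94%, against 6.13%), and downward for 7 in each (9.72%, against 4.91% and 5.53% of all). Each of these lower counts in both comparisons includes ME3, which passed the filter on low values through its 3 vector libraries alone.

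Among partners and regulators, 5 of 11 were higher with either transgene. CUL3, the scaffold that joins KEAP1 to the ligase, had a log2 fold change of 0.22 under OTUB2 and 0.16 under SNX29P2 (limma, Benjamini-Hochberg adjusted p = 0.698 and 0.638), and the small MAF protein MAFF had -0.24 under OTUB2 (adjusted p = 0.745). RBX1, the RING subunit of the ligase, had 0.18 under SNX29P2 (adjusted p = 0.607).

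In the thioredoxin and peroxiredoxin list 7 of 11 were higher in both comparisons. PRDX1, a cytosolic peroxiredoxin and NRF2 target, was at 253, 261 and 297 RPKM with the vector, 328, 320 and 314 under OTUB2 and 307, 295 and 305 under SNX29P2. All 3 OTUB2 libraries were above the vector (0.25 on the log2 scale, with an adjusted p of 0.554 by limma), and SNX29P2 replicate 2 was within the vector range. TXN lay above the vector in all 6 overexpression libraries, and had 0.14 under SNX29P2 (adjusted p = 0.551). PRDX5, the peroxiredoxin of mitochondria, peroxisomes and cytosol, lay in the opposite direction. It was at 204, 195 and 180 RPKM with the vector, 166, 162 and 172 under OTUB2 and 166, 165 and 151 under SNX29P2, without overlap in either comparison (-0.21 and -0.27; limma, Benjamini-Hochberg adjusted p = 0.656 and 0.488).

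Glutathione synthesis and use had 20 of 23 genes tested, 10 higher and 10 lower in each comparison with the vector. GPX1, the cytosolic glutathione peroxidase, had 0.24 under OTUB2, and GPX4, the lipid peroxidase that guards against ferroptosis, had -0.22 under SNX29P2 (limma, Benjamini-Hochberg adjusted p = 0.717 and 0.543). The glutathione transferase GSTM4, part of a family of near-identical genes, had -0.56 and -0.36 (adjusted p = 0.481 and 0.543). In NADPH supply 5 of 7 were lower under OTUB2 and 6 of 7 under SNX29P2. They included the mitochondrial malic enzyme ME3, at 0.289 and 0.322 RPKM against 0.710 with the vector (-1.02 and -0.91; limma, Benjamini-Hochberg adjusted p = 0.704 and 0.579). ME3 passed the filter on low values through its 3 vector libraries alone, so a lower level elsewhere follows in part from the filter.

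Of 12 tested genes among the other reported targets, 10 were higher under OTUB2 and 7 under SNX29P2, with medians of 0.13 and 0.02. The epoxide hydrolase EPHX1 had 0.29 under OTUB2, and the efflux pump ABCG2 had 0.47 under OTUB2 and 0.36 under SNX29P2 (limma, Benjamini-Hochberg adjusted p = 0.707, 0.718 and 0.681). OSGIN1 had 0.44 under SNX29P2 (adjusted p = 0.759). Among 8 genes of haem and iron handling, 5 were higher under OTUB2 and 4 under SNX29P2. HMOX2, the constitutive haem oxygenase, had 0.09 under OTUB2, the haem transporter SLC48A1 had 0.22 in both comparisons, and the biliverdin reductase BLVRB had -0.16 under SNX29P2 (limma, Benjamini-Hochberg adjusted p = 0.868, 0.900, 0.826 and 0.833). Of 3 tested genes that remove superoxide and peroxide, 2 were higher in both comparisons. They were catalase, CAT, at 0.21 and 0.16, and SOD1, at 0.13 and 0.08 (limma, Benjamini-Hochberg adjusted p = 0.778, 0.733, 0.814 and 0.826).

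Between OTUB2 and SNX29P2, 51 of the 72 were higher under OTUB2 and 21 lower, where 48.6% of all tested genes were higher. All 11 thioredoxins and peroxiredoxins and 11 of 12 other targets were among the higher ones, with medians of 0.03 and 0.11. PRDX1 and PRDX2 had 0.09 and 0.10, the transaldolase TALDO1 0.13 and the aldose reductase AKR1B1 0.12 (limma, Benjamini-Hochberg adjusted p = 1.00 each). None of the 72 had an unadjusted p under 0.05 in this comparison.

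**Figure D4:**
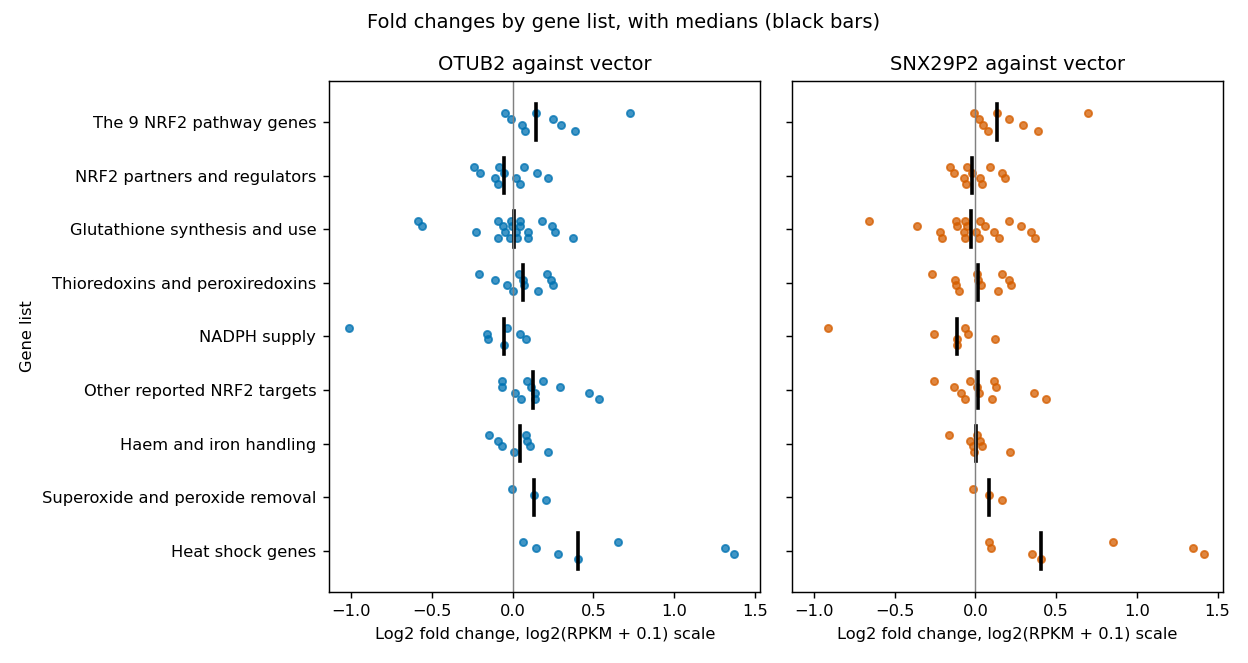
Log2 fold change on the log2(RPKM + 0.1) scale (horizontal axes) of every tested gene of each list (vertical axis), under OTUB2 (left) and SNX29P2 (right) against the vector. Black bars mark medians, which are 0.14 for the 9 NRF2 pathway genes in both panels and 0.40 and 0.41 for the heat shock genes.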

How the data were processed

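The authors deposited 1 table of RPKM values with exon positions and gene lengths (column Length, used as deposited), per the file headers. The genome build, GRCh38, is named in the submitters' processing notes. Neither aligner nor counter, strand handling nor annotation release is given there. Libraries were grouped by the genotype in the labels. The 9 members and all lists were chosen with earlier results of these data known. Positions of the 9 genes equal those of GENCODE 29.

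Tests covered genes that reached 0.5 RPKM in 3 or more libraries. Values were log2(RPKM + 0.1), fitted with limma 3.58.1 (R 4.3.3), with a trended variance and group as the only term, over all 9 libraries. Fold changes of low genes are understated. Multiplied by length, 100% of values below 1000 reads were whole multiples of 1 read within 0.05 reads. The reads so recovered gave the depth and the voom alternative. Named were all members and, per list and comparison, called genes or the 2 with the smallest p, and the 3 genes most like NQO1 and TXNRD1. Values of some listed genes are not reported here. Alternatives were other pseudocounts, filters, scalings, fits with fewer libraries, a replicate block and voom. The program was tested on simulated data. Plots were drawn in matplotlib 3.10.9, and summaries made in pandas 2.3.3 (python 3.11.15).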

Additional observations from a re-analysis of the deposited data

How the results depend on the processing

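None of the 9 genes was called under any of the 20 alternatives, and NQO1 was higher with an unadjusted p under 0.05 in 20 of 20 in both comparisons with the vector. TXNRD1 was so in 19 of 20 in each, and GCLM in 11 with OTUB2 and 18 with SNX29P2. With each library left out in turn, the log2 fold change of NQO1 was 0.34 to 0.45 with OTUB2 and 0.25 to 0.36 with SNX29P2, and that of HMOX1 0.25 to 1.01 and 0.21 to 0.97. Without the libraries numbered 1, an alternative chosen after seeing the data, TXNRD1 was at 0.15 and 0.14, and GCLM at 0.11 and 0.32. Directions turned for differences whose intervals spanned 0 in the full fit. With 1 library left out, these ran, against the vector with OTUB2, from -0.096 to 0.046 for NFE2L2, -0.11 to 0.24 for SRXN1 and -0.087 to 0.017 for ME1, and with SNX29P2 from -0.089 to 0.11 for KEAP1 and -0.19 to 0.16 for SRXN1. Between OTUB2 and SNX29P2 they ran from -0.00078 to 0.061 for TXNRD1, -0.45 to 0.51 for HMOX1, -0.14 to 0.00023 for GCLC, -0.16 to 0.012 for GCLM and -0.0047 to 0.19 for SRXN1. SRXN1 with SNX29P2 was at 0.060 without the libraries numbered 2. Without those numbered 1, NFE2L2 and SRXN1 with OTUB2 were at 0.051 and -0.10 and KEAP1 with SNX29P2 at -0.13.

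Genes called over the whole table were 3 with OTUB2 against the vector, 6 with SNX29P2 and 4 for OTUB2 against SNX29P2. With OTUB2 the count was 7 with no filter, and 1 with only the 2 groups compared, without the libraries numbered 2 and without those numbered 1. With SNX29P2 it was 1 with a filter of 1 RPKM in 6 libraries, 10 with voom, 3 without the libraries numbered 2 and 3 without those numbered 1. For OTUB2 against SNX29P2 it was 1 with that filter. Leaving out 1 library gave 1 to 8, 4 to 8 and 4 to 5. The cause of these moves was not tested. Same-numbered libraries correlated in their deviations from the group means at -0.018 to 0.27, and 7 of 9 such pairs exceeded 0.1, against 0 of 18 pairs with different numbers (-0.23 to 0.050). The numbers were not taken as a pairing because both pairs of vector replicate 1 were under 0.1 (0.051 and -0.018), and the labels tie the numbers to nothing shared. The first of these still lay just above the highest pair with different numbers (0.050). The main fit therefore has no term for variation that same-numbered libraries share, and such variation stays in the spread behind its p-values. Vector replicate 2 and 3 each correlated best with their own number, and vector replicate 1 did not do so with SNX29P2. With the replicate number as a block, 4, 9 and 4 genes were called, no member among them, with NQO1 at an adjusted p of 0.145 with OTUB2 and 0.166 with SNX29P2. HMOX1 then had an adjusted p of 0.398 and 0.348 by limma, and an unadjusted p of 0.038 and 0.044, against 0.140 and 0.153 without the block. Over the whole table, 1934, 2272 and 778 genes had an unadjusted p under 0.05 by limma with the block, against 1112, 1358 and 402 without it. The planned quasi-likelihood count test was not run, and voom was the model run on recovered reads.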
